A study of Mus musculus with 18 samples.

Results

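The 6 arrays described here set soleus, a slow postural muscle of the calf, against the extensor digitorum longus (EDL), a fast muscle that extends the toes, in facility control (FC) mice, which were neither flown nor kept in the flight habitat. The members were taken by their titles, the 3 arrays labelled FC SOL and the 3 labelled FC EDL, out of 18 arrays in the series. FC mice were male animals aged 19 to 20 weeks that lived for 30 days in the animal facility with standard cages and chow. Their strain is written C57/BL6 in the labels and C57BL/N6 in the paper. The remaining 12 arrays hold soleus and EDL of mice kept on the ground in a copy of the flight habitat (BG) and of mice flown aboard the Bion-M1 satellite (BF), both fed paste food, with 3 arrays for each muscle. Each array holds RNA of a whole muscle, and no animal carried a transgene or a drug. The labels number the arrays 1 to 3 within each group, but do not say whether soleus and EDL of the same number came from the same mouse. The p-values and standard errors rest on the spread between samples within a group, pooled over all 6 groups and 18 arrays. They thus carry the spread of BG and BF arrays and not that of the FC arrays alone.

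Skeletal muscle fibres come in slow and fast types that carry different versions of the same contractile and calcium-handling proteins. Slow type I fibres contract slowly, resist fatigue and burn fatty acids in their mitochondria, while fast type IIb fibres contract quickly and draw on glycogen and glycolysis. Mouse soleus is known as a mixture of type I and type IIa fibres, and mouse EDL as a muscle of mostly IIb and IIx fibres. In RNA of a whole muscle, fewer fibres of a type and less RNA per fibre cannot be told apart.

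Signals are log2 values of the robust multi-array average (RMA), so a difference of 1 is 2-fold, and differences are given as soleus minus EDL, with positive values higher in soleus. Each gene is read from its brightest probe set, by the mean over 18 arrays, and 12393 genes were measured. "Passed" means an adjusted p under 0.05 from limma, adjusted over all 22626 probe sets, and "called" means passed with a difference over 2-fold. Both muscles showed their labelled tissue in the FC arrays: Acta1, skeletal alpha-actin, lay between 14.26 and 14.38 on all 6, Ckm, muscle creatine kinase, between 13.89 and 14.20, and of 9 muscle fibre markers only Mb, myoglobin, passed (0.46, adjusted p = 0.00391). FC array medians ran from 6.20 to 6.26. The correlation between arrays was 0.9912 to 0.9948 within EDL, 0.9923 to 0.995 within soleus and 0.9711 to 0.9832 between the muscles. The first principal component of the 6 arrays held 67.3% of the variance and separated the muscles.

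Of 12393 genes, 2033 passed (16.4%), 992 of them higher in soleus (8%) and 1041 higher in EDL (8.4%). The called genes numbered 438 (3.53%), with 201 higher in soleus (1.62%) and 237 higher in EDL (1.91%), and the median difference over all genes was 0.03. The difference was over 4-fold for 47 genes called in soleus and 40 called in EDL, and over 16-fold for 8 and 3. In 437 of the 438 called genes the 3 arrays of one muscle lay entirely above the 3 of the other, as they did in 4702 of all genes (37.9%). The exception was Hoxd10, a homeobox gene of low signal, at 3.31, 3.83 and 3.25 in soleus and 4.77, 5.18 and 3.72 in EDL. Of the called genes, 89 belong to at least 1 of 33 gene lists described below and 349 to none.

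**Figure D1:**
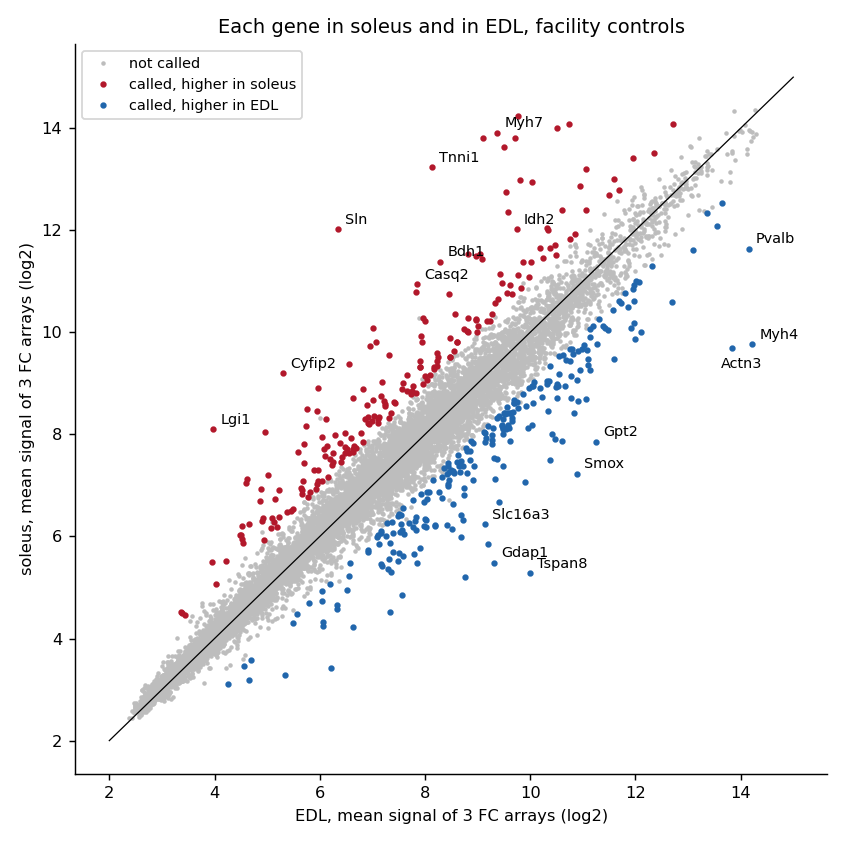
Mean signal of the 3 FC soleus arrays (vertical axis, log2) against that of the 3 FC EDL arrays (horizontal axis, log2) for 12393 genes; red points are the 201 genes called higher in soleus, blue points the 237 called higher in EDL, and the line marks equal signal. Sln, Lgi1 and Cyfip2 lie far above the line, and Tspan8, Gdap1 and Myh4 far below it.

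The EDL 3 array stood apart for slow-fibre genes. The mean signal of 14 slow-fibre sarcomere genes was 12.35, 12.38 and 12.32 in soleus 1 to 3, and 10.22, 10.10 and 7.56 in EDL 1 to 3. EDL 3 was thus well below the other EDL arrays for these genes, while the mean of 17 fast-fibre genes was close in all of them, at 12.26, 12.35 and 12.45. The same slow list spanned 9.13 to 10.21 in BG EDL and 8.99 to 9.98 in BF EDL, so EDL 3 of FC was the lowest of the 9 EDL arrays. Other marker lists also moved in EDL 3: the mean of 12 fibroblast markers was 9.82 there against 9.24 and 9.35 in EDL 1 and 2, that of 13 adipocyte markers 7.56 against 6.85 and 6.73, that of 14 macrophage markers 7.17 against 6.65 and 6.51, and that of 10 Schwann cell markers 6.62 against 7.25 and 7.29. Their part in the slow-fibre values was not tested. The values of slow-fibre genes without EDL 3 are therefore given beside those with it.

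Slow-fibre sarcomere genes had the largest median difference of the 33 lists. Of 14 measured members 12 passed, all higher in soleus and all over 2-fold, with a median difference of 3.28, against 8% and a median of 0.03 over all genes. Without EDL 3 the median was 2.33 and 10 members passed. Myh7 encodes the slow (type I) myosin heavy chain, the motor of slow fibres, and was at 13.93, 13.92 and 13.87 in soleus and at 10.57, 10.75 and 6.80 in EDL. The groups did not overlap, the soleus arrays agreed within 0.1, and EDL 3 was far below EDL 1 and 2. Myh7 differed by 4.53 ± 0.95 (SE, n = 3, adjusted p = 0.00348 from limma), a 23.2-fold higher signal in soleus, and by 3.24 without EDL 3 (adjusted p = 0.0201).

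The 3 subunits of slow troponin, the calcium switch of the thin filament, gave the same pattern. Tnni1, the inhibitory subunit, was at 13.34, 13.15 and 13.20 in soleus and 9.44, 9.09 and 5.87 in EDL, a difference of 5.10 ± 0.69 (adjusted p = 9.43e-05 from limma) or 34.3-fold. Tnnt1, which binds tropomyosin, was at 13.78, 13.79 and 13.86 against 10.40, 10.39 and 6.52, a difference of 4.71. Tnnc1, the calcium-binding subunit that slow fibres share with the heart, was at 13.79, 13.84 and 13.78 against 11.11, 10.90 and 7.15, a difference of 4.08. In each of the 3 genes all soleus arrays lay above all EDL arrays, and EDL 3 held the lowest value. For Tnni1 that value was below the FC array medians of 6.20 to 6.26, so its fold is uncertain. Without EDL 3 the differences were 3.97 for Tnni1, 3.42 for Tnnt1 and 2.80 for Tnnc1, and all 3 still passed.

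Slow myosin light chains and tropomyosin followed. Myl3, the slow essential light chain, was at 14.24, 14.21 and 14.24 in soleus and 11.04, 10.74 and 7.54 in EDL (4.46, adjusted p = 0.000181 from limma). Myl2, the slow regulatory light chain, was at 14.05, 14.10 and 14.13 against 12.09, 11.76 and 8.37 (3.35, adjusted p = 0.00248 from limma). Tpm3, slow tropomyosin, was at 13.59, 13.65 and 13.65 against 10.83, 10.67 and 7.03 (4.12, adjusted p = 0.000447 from limma). Soleus values of these genes were near 14.53, the highest value of any probe set on the 18 arrays, and spread little. Without EDL 3 the differences were 3.34, 2.17 and 2.88, and all passed.

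Stretch-linked and Z-disc proteins of slow fibres were also higher in soleus. Ankrd2, a titin-associated ankyrin protein, was at 13.02, 12.76 and 12.48 against 10.39, 10.33 and 7.89 (3.21, adjusted p = 0.000318 from limma). Myoz2, the slow calsarcin that tethers calcineurin to the Z-disc, was at 13.14, 12.88 and 12.93 against 10.79, 10.64 and 8.0 (3.17, adjusted p = 0.000217 from limma). Both were lowest in EDL 3, and both passed without it, at 2.39 and 2.27. Csrp3, muscle LIM protein, differed by 2.91 (adjusted p = 0.015 from limma) and no longer passed without EDL 3 (1.83, adjusted p = 0.0862) or without soleus 1 (2.79, adjusted p = 0.0529). Actn2, the alpha-actinin of all fibres, differed by only 1.45 (adjusted p = 0.00021 from limma), with EDL at 12.16, 12.36 and 11.36, and by 1.15 without EDL 3. Myh6, the heart's alpha myosin, had a low signal and differed by 1.68 (adjusted p = 0.00904 from limma), but not past the threshold without EDL 3 (1.25, adjusted p = 0.0618) or without soleus 2 (1.5, adjusted p = 0.0506). The 2 members that did not pass were Smpx, a small muscle protein (0.00), and Myl6b, a light chain (-0.01).

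Fast-fibre sarcomere genes leaned the other way, with a wider range of sizes. Of 17 measured members 11 were higher in EDL (64.7%), 6 of them over 2-fold, and 1 was higher in soleus (5.88%). The other 5 did not pass, and the median was -0.53. Over all genes 8.4% passed higher in EDL and 8% higher in soleus. Myh4 encodes the IIb myosin heavy chain of the fastest fibres and was at 14.11, 14.22 and 14.32 in EDL and 8.02, 10.96 and 10.32 in soleus. EDL arrays agreed closely, and soleus 1 was well below soleus 2 and 3. The difference of Myh4 was -4.45 ± 0.79 (adjusted p = 0.00101 from limma), 21.8-fold higher in EDL, and -3.57 without soleus 1 (adjusted p = 0.00723). Actn3, the alpha-actinin of fast fibres, was at 13.73, 13.78 and 13.99 in EDL and 8.69, 9.93 and 10.46 in soleus, a difference of -4.14 ± 0.50 (adjusted p = 3.8e-05 from limma). Here too soleus 1 was lowest.

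Pvalb encodes parvalbumin, the calcium buffer that speeds relaxation of fast fibres. It was at 14.14, 14.11 and 14.18 in EDL and 11.13, 11.94 and 11.85 in soleus (-2.51, adjusted p = 2.39e-05 from limma). Myoz1, the fast calsarcin, was nearly the same on arrays of a muscle, at 13.57, 13.54 and 13.58 in EDL and 12.09, 12.07 and 12.07 in soleus (-1.49, adjusted p = 4.64e-06 from limma). Mylk2, the kinase that phosphorylates the fast light chain, was at 10.41, 11.14 and 11.29 against 8.80, 9.69 and 9.31 (-1.68, adjusted p = 0.00124 from limma). Myom2, an M-band protein, was at 11.73, 11.76 and 12.07 against 10.50, 10.45 and 10.55 (-1.35, adjusted p = 0.000458 from limma). All 4 genes had every EDL array above every soleus array.

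The fast troponins, light chains and tropomyosin differed far less than their slow counterparts. The differences were -0.41 for Tnni2, -0.53 for Tnnt3, -0.40 for Myl1, -0.62 for Mylpf and -0.45 for Tpm1, each passed, while Tnnc2 did not pass (-0.19, adjusted p = 0.124 from limma). These probe sets were bright in both muscles: Tnni2 was at 13.80, 13.75 and 13.90 in soleus and 14.21, 14.27 and 14.20 in EDL. Tnni2 has another probe set of lower mean signal, with a difference of -1.59, and so has Myoz1, with -2.90, so the size of a fast-gene difference depended on the probe set.

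The IIx and IIa myosins did not follow IIb. Myh1, the IIx heavy chain, was at 13.34, 13.48 and 13.73 in soleus and 13.89, 13.96 and 13.66 in EDL, and the muscles overlapped (-0.32, adjusted p = 0.128 from limma). Myh2, the IIa heavy chain, was higher in soleus, at 14.15, 14.05 and 14.05 against 13.22, 13.40 and 11.54 (1.36, adjusted p = 0.00687 from limma), and by 0.77 without EDL 3 (adjusted p = 0.00399). The other genes of the fast list that did not pass were Myoz3, a calsarcin (-0.49), Fhl3, a LIM-domain protein (-0.54), both of which passed with the array number as a block (adjusted p = 0.0202 and 0.0468 from limma), and Mybph, myosin-binding protein H, which was at 4.74 and 5.53 in EDL 1 and 2 and 8.74 in EDL 3 (-0.26).

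**Figure D2:**
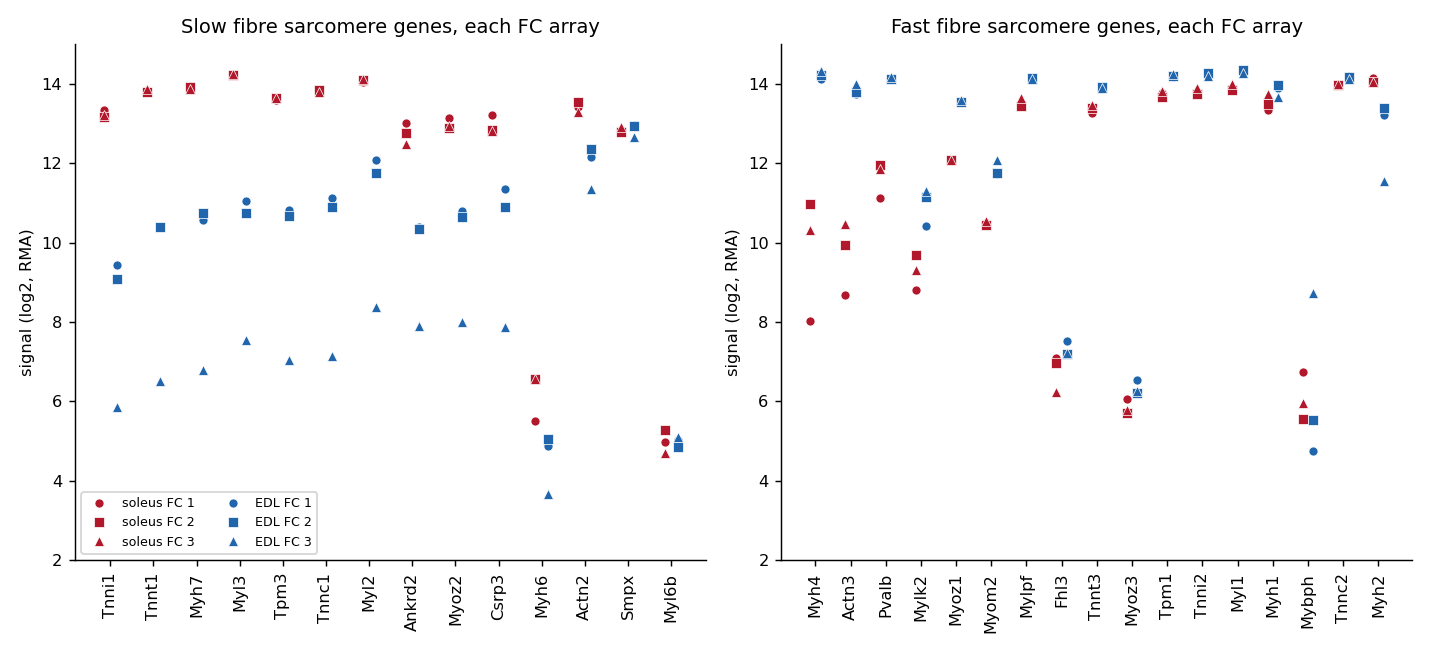
Signal (log2, RMA) of each slow-fibre gene (left) and fast-fibre gene (right) on the 3 FC soleus arrays (red) and the 3 FC EDL arrays (blue), with the marker shape giving the array number. Slow-fibre genes are tight in soleus and fall by a further step in EDL 3, where Myh7 is at 6.80, and Myh4 and Actn3 are lowest in soleus 1.

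The promoters of fibre-type genes are shown here because their genes differed together in the arrays above. The 250 bases before the start of 4 genes higher in soleus (Tnnt1, Tnnc1, Myl3 and the calsequestrin gene Casq2) and 2 higher in EDL (Myh4 and Mylpf) were taken from RefSeq, build GRCm38.p6, and are written 5′ to 3′ on the strand of the gene. Capitals mark matches, on either strand and overlaps allowed, to the E-box CANNTG, the MCAT element CATTCC, the half-site AAGGTCA of estrogen-related receptors, and the MEF2 and CArG motifs.
Tnnt1 (chr7:4515976-4516225, minus strand): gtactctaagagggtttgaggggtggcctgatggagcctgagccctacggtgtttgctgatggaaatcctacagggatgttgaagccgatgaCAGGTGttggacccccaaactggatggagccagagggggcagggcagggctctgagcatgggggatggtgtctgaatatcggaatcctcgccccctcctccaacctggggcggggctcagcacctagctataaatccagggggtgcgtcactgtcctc
Tnnc1 (chr14:31208062-31208311, plus strand): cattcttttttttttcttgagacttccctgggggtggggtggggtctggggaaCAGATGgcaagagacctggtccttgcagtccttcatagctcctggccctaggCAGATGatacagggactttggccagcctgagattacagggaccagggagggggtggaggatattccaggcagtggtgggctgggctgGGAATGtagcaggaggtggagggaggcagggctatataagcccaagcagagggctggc
Myl3 (chr9:110763428-110763677, plus strand): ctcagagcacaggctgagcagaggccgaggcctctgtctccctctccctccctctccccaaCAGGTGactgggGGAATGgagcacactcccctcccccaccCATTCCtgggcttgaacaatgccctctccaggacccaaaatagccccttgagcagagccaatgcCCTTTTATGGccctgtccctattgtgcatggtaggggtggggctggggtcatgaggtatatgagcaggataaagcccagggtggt
Casq2 (chr3:102086165-102086414, plus strand): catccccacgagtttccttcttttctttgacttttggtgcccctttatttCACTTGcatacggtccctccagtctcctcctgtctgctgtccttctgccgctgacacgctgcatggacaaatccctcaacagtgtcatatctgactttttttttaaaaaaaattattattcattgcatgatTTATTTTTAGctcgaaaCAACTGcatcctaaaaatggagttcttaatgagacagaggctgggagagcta
Myh4 (chr11:67237562-67237811, plus strand): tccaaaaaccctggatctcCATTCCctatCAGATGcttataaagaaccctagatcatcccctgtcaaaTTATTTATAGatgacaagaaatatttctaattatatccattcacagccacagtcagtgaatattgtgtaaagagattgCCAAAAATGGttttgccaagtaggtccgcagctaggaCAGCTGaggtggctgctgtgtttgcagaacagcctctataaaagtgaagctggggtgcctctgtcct
Mylpf (chr7:127211358-127211607, plus strand): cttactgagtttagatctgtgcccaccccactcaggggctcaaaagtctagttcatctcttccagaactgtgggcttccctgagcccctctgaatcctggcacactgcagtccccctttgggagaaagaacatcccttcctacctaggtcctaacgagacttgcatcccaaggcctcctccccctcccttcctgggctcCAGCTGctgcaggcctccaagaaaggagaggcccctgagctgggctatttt
The E-box is bound by the MyoD family, the MCAT element by TEAD factors, the MEF2 motif by MEF2 factors and the CArG box by serum response factor. An E-box was in 18 of 19 promoters of the slow list, in 7 of 11 of the fast list and in 66.2% of 32851 mouse promoters of that length. The MCAT letters were in 4 of 19 slow and 5 of 11 fast promoters, against 12.6% of all. The MEF2 motif was in 1 of 19 slow and 3 of 11 fast promoters, against 2.92% of all. All 14 slow genes but only 10 of 17 fast genes had a promoter in the table used. A match is a description of letters and not a binding site.

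Calcium handling was split by isoform. Of 27 genes for calcium release and uptake 7 passed higher in soleus (25.9%) and 9 higher in EDL (33.3%), with a median of -0.30. Over all genes these shares were 8% and 8.4%. Sln encodes sarcolipin, a small inhibitor of the calcium pump, and had the largest difference of all called genes. It was at 12.10, 11.55 and 12.42 in soleus and 6.67, 6.14 and 6.20 in EDL, a difference of 5.69 ± 0.41 (adjusted p = 4.09e-07 from limma), 51.5-fold. EDL 3 was like the other EDL arrays, and without it the difference was 5.62. The EDL signals of Sln lay near the FC array medians of 6.20 to 6.26, and with no detection calls its fold is uncertain.

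Atp2a2, the slow calcium pump SERCA2, was at 14.05, 13.97 and 13.98 in soleus and 11.35, 11.38 and 8.81 in EDL (3.49, adjusted p = 0.000318 from limma), and at 2.64 without EDL 3. Its fast counterpart Atp2a1 (SERCA1) differed by -0.30 (adjusted p = 0.0389 from limma). Atp2a1 no longer passed when any of the 6 arrays was left out, or with the block (adjusted p = 0.0744 from limma). Casq2, the slow and cardiac calcium store, was at 10.99, 10.79 and 11.05 against 7.70, 7.90 and 7.94, a difference of 3.10 ± 0.18 (adjusted p = 3.24e-08 from limma). Its EDL values did not move with EDL 3, and the difference without that array was 3.14. Casq1, the fast store, differed by -1.0 (adjusted p = 0.00875 from limma). Pln, phospholamban, which restrains SERCA2, was at 7.84, 8.13 and 7.48 against 6.11, 5.72 and 5.26 (2.12, adjusted p = 2.13e-06 from limma). Homer2, a scaffold of calcium signalling, was at 11.51, 11.55 and 11.43 against 9.22, 9.12 and 8.58 (2.52, adjusted p = 1.24e-06 from limma). Among those higher in EDL were Cacng1, a subunit of the voltage sensor (-1.33), and the calcineurin catalytic subunits Ppp3cb (-1.32) and Ppp3ca (-0.90), while the calcineurin regulators Rcan1 (1.37) and Rcan2 (1.31) were higher in soleus. The Rcan1 call was lost whichever array was left out (adjusted p from 0.0701 to 0.0989 from limma). Its FC arrays did not overlap, at 11.47, 11.30 and 11.37 in soleus and 10.13, 9.92 and 9.99 in EDL. The BF soleus arrays, part of the pooled spread, were at 12.43, 13.29 and 11.60. The ryanodine receptor Ryr3 (-0.13) and the calcium-binding protein Hrc (0.13) did not pass.

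Glycolysis and glycogen genes were mostly higher in EDL. Of 34 measured members 18 passed higher in EDL (52.9%), 11 of them over 2-fold, and 5 higher in soleus (14.7%), with a median of -0.65. Over all genes 8.4% passed higher in EDL and 8% higher in soleus. Phosphorylase kinase, the enzyme that switches on glycogen breakdown, was higher in EDL in each measured subunit. Phkg1, the catalytic subunit, was at 10.30, 10.34 and 10.47 in EDL and 7.43, 7.43 and 7.65 in soleus (-2.87, adjusted p = 2.13e-06 from limma). Phkb, a regulatory subunit, was at 11.91, 11.94 and 12.17 against 9.69, 9.85 and 10.05 (-2.14, adjusted p = 5.79e-05 from limma). Phka1, the muscle alpha subunit, differed by -2.10, and the phosphorylase Pygm by -1.11. EDL and soleus arrays did not overlap in any of these 4 genes.

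Slc16a3, the lactate exporter of glycolytic fibres, was at 9.05, 8.93 and 9.44 in EDL and 6.24, 6.37 and 6.12 in soleus (-2.90, adjusted p = 0.00042 from limma). Gpd1, the cytosolic glycerol phosphate dehydrogenase, was at 10.01, 10.61 and 11.17 against 7.53, 7.92 and 8.20 (-2.71, adjusted p = 3.65e-05 from limma). Its mitochondrial partner in the shuttle, Gpd2, differed by -1.74. Fbp2, the muscle fructose bisphosphatase, was at 9.26, 9.13 and 9.63 against 7.16, 7.23 and 7.01 (-2.20, adjusted p = 0.00045 from limma). The core enzymes differed less, from -0.52 for Aldoa to -0.93 for Tpi1, with -0.65 for Pfkm and -0.85 for Eno3. Pfkm no longer passed on leaving out any array but EDL 1 (adjusted p from 0.0675 to 0.108 from limma). Its FC arrays did not overlap, at 12.97, 12.96 and 12.96 in soleus and 13.48, 13.63 and 13.74 in EDL. The BF soleus arrays, part of the pooled spread, were at 13.35, 12.23 and 12.94.

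Lactate dehydrogenase was split by subunit. Ldhb, the heart-type subunit, was at 12.88, 12.78 and 12.91 in soleus and 11.39, 11.51 and 9.96 in EDL (1.90, adjusted p = 0.000152 from limma), with 1.41 without EDL 3. Ldha, the muscle-type subunit, was at 13.33, 13.33 and 13.43 in EDL and 12.31, 12.40 and 12.30 in soleus (-1.03, adjusted p = 0.000672 from limma). The lactate importer Slc16a1 (0.80) and hexokinase 1, Hk1 (0.79), were also higher in soleus. Slc16a1 no longer passed whichever array was left out (adjusted p from 0.0601 to 0.186 from limma). With any 1 array left out, 3 rather than 5 members of the list passed higher in soleus. Slc2a4, the insulin-responsive glucose transporter, did not pass and overlapped (-0.07, adjusted p = 0.857 from limma).

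Genes of fatty acid uptake and oxidation were mostly higher in soleus. Of 32 measured members 23 passed higher in soleus (71.9%) and 1 higher in EDL (3.12%), with a median of 0.62. Over all genes these shares were 8% and 8.4%. In 28 members every soleus array lay above every EDL array, as in 2494 of all 12393 genes. The sizes were modest, from 0.46 to 1.32 among those that passed. Without EDL 3 or without soleus 1 the count was 17. Plin5, a lipid droplet protein, was at 8.89, 8.67 and 9.11 in soleus and 7.71, 7.50 and 7.52 in EDL (1.32, adjusted p = 0.00321 from limma). Hadha, of the mitochondrial trifunctional protein, was at 11.60, 11.73 and 11.80 against 10.21, 10.62 and 10.61 (1.23, adjusted p = 0.000479 from limma). Acaa2, the thiolase of beta-oxidation, was at 11.42, 11.32 and 11.63 against 10.31, 10.29 and 10.15 (1.21, adjusted p = 0.000163 from limma).

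Uptake and binding of fatty acids followed the same direction. Fabp3, the fatty acid binding protein of muscle, was at 13.55, 13.42 and 13.55 in soleus and 12.56, 12.35 and 12.14 in EDL (1.16, adjusted p = 9.63e-05 from limma). Cd36, the fatty acid transporter, was at 11.73, 11.71 and 12.04 against 10.93, 10.71 and 10.60 (1.08, adjusted p = 0.000166 from limma). Acsl6, an acyl-CoA synthetase, was the member higher in EDL (-0.96). Echs1, enoyl-CoA hydratase (0.22), and Acot13, a thioesterase (0.04), did not pass.

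The tricarboxylic acid cycle and the respiratory chain differed far less. Of 25 cycle genes 4 passed higher in soleus (16%) and 2 higher in EDL (8%), with a median of 0.03. Of 48 respiratory chain genes 6 passed higher in soleus (12.5%) and 0 in EDL, with a median of 0.04. Over all genes the shares were 8% and 8.4%. Leaving out any 1 array took the respiratory chain count from 6 to between 1 (without EDL 3 or soleus 2) and 4 (without EDL 2), and without EDL 3 the cycle count of 4 became 2. Idh2, the mitochondrial isocitrate dehydrogenase that makes NADPH, stood out at 12.07, 12 and 11.99 in soleus and 9.81, 10.16 and 9.24 in EDL (2.28 ± 0.17, adjusted p = 4.09e-07 from limma). Me1, the cytosolic malic enzyme, was higher in EDL (-1.33, adjusted p = 8.23e-05 from limma). Ndufs1 of complex I (0.00), Uqcrb of complex III (-0.01), Cox7a2 of complex IV (0.00) and Mdh2 of the cycle (0.01) were equal within 0.01 in their means. Among 19 genes of ketone and branched-chain amino acid use, Bdh1, which oxidizes the ketone body beta-hydroxybutyrate, was at 11.42, 11.42 and 11.30 in soleus and 9.02, 9.08 and 6.76 in EDL (3.09, adjusted p = 0.000165 from limma). It was lowest in EDL 3, as the slow-fibre genes were, and differed by 2.33 without it. Apart from it only Acat1, a thiolase (0.64), and Aldh6a1 (-0.55) of that list passed. Aldh6a1 no longer passed on leaving out any array but soleus 3 (adjusted p from 0.0897 to 0.185) or with the block (adjusted p = 0.0957 from limma).

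**Figure D3:**
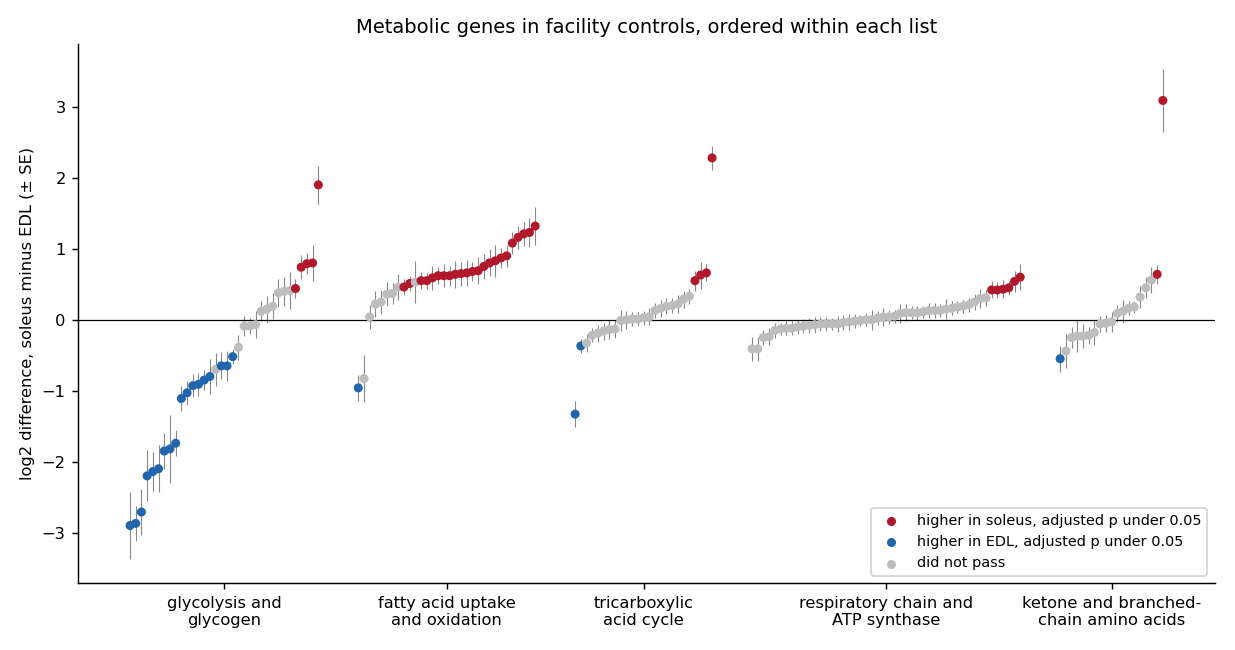
Log2 difference, soleus minus EDL (vertical axis, with SE), of each measured gene in 5 metabolic lists, ordered within a list; red passed higher in soleus, blue passed higher in EDL and grey did not pass. Glycolysis genes reach down to -2.90, fatty acid genes sit mostly between 0.46 and 1.32, and respiratory chain genes lie near 0.

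Creatine, nucleotide, carbonic acid and polyamine enzymes gave 4 passed members in each direction out of 19 (21.1%). Over all genes 8% passed higher in soleus and 8.4% higher in EDL. Smox, spermine oxidase, was at 10.61, 10.95 and 11.11 in EDL and 7.11, 7.55 and 7.02 in soleus (-3.67, adjusted p = 7.39e-05 from limma), 12.7-fold. Odc1, the first enzyme of polyamine synthesis, was also higher in EDL (-1.49, adjusted p = 3.81e-05 from limma). Ampd3, an AMP deaminase, was higher in soleus (1.43, adjusted p = 0.00553 from limma), as were Ckb, the brain-type creatine kinase (0.76), and Car2, carbonic anhydrase 2 (0.63). Ckb no longer passed without soleus 1 (0.60, adjusted p = 0.065 from limma), nor did Car2 on leaving out any array but EDL 1. Without soleus 1, 2 members rather than 4 passed higher in soleus. Car3, carbonic anhydrase 3, did not pass (-0.04, adjusted p = 0.937 from limma).

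Several of the genes called with the largest differences belong to no list above. Lgi1, a secreted glycoprotein known from synapses, was at 7.77, 8.25 and 8.29 in soleus and 4.49, 4.18 and 3.22 in EDL (4.13 ± 0.34, adjusted p = 1.26e-06 from limma). Cyfip2, a component of the actin-regulating WAVE complex, was at 9.12, 9.19 and 9.27 against 5.60, 5.28 and 5.05 (3.88 ± 0.16, adjusted p = 4.03e-10 from limma). Every soleus array was above every EDL array in both genes, and the differences without EDL 3 were 3.76 and 3.75. Their EDL signals lay below the array medians, and with no detection calls here no fold is given for them.

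In the other direction, Tspan8, a tetraspanin of the cell surface, had the largest difference of all genes called higher in EDL. It was at 9.97, 9.89 and 10.11 in EDL and 5.01, 5.34 and 5.50 in soleus (-4.71 ± 0.48, adjusted p = 6.92e-06 from limma). Gdap1, a mitochondrial outer membrane protein, was at 9.08, 9.26 and 9.62 against 5.02, 5.84 and 5.62 (-3.83, adjusted p = 0.000148 from limma). Tlcd4, a membrane protein with a TLC domain, was at 8.67, 8.77 and 8.88 against 5.20, 5.43 and 4.97 (-3.57, adjusted p = 6.92e-06 from limma). Each was high on all EDL arrays and low on all soleus arrays. Gpt2, the mitochondrial alanine aminotransferase, was at 10.86, 11.10 and 11.77 against 7.35, 8.09 and 8.14 (-3.38, adjusted p = 3.44e-06 from limma). Pla2g7, which breaks down platelet-activating factor, was at 8.62, 8.91 and 10.09 against 5.87, 5.66 and 6.01 (-3.36, adjusted p = 1.46e-05 from limma). Cntnap2, a neurexin-like adhesion protein, was at 6.97, 7.46 and 7.59 against 4.56, 4.58 and 4.42 (-2.82, adjusted p = 0.000111 from limma). Some genes have probe sets that disagree: the highest difference among the probe sets of Gdap1 was 0.02 and among those of Cntnap2 0.01, and in 24 of 12393 genes probe sets passed in opposite directions.

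Transcription factors linked to fibre type passed in both directions, 5 of 36 each way, with a median of 0.16. That is 13.9% each way, against 8% and 8.4% of all genes. Esrrb, an estrogen-related orphan receptor, was at 7.62, 7.65 and 7.67 in soleus and 5.74, 5.72 and 5.32 in EDL (2.05, adjusted p = 4.06e-05 from limma). Ppara, the receptor that turns on fatty acid oxidation genes, was at 9.65, 9.95 and 10.08 against 8.61, 8.76 and 8.02 (1.43, adjusted p = 0.00188 from limma). The coactivator Ppargc1b (0.65), the calcineurin-responsive factor Nfatc2 (0.84) and Tead1 (0.69) were also higher in soleus. Ppargc1b no longer passed on leaving out any array but EDL 1 (adjusted p from 0.0676 to 0.179 from limma). Sox6, a repressor of slow-fibre genes, was at 9.92, 9.84 and 10.35 in EDL and 8.12, 8.11 and 8.33 in soleus (-1.85, adjusted p = 5.7e-05 from limma). Tbx15, a T-box factor of glycolytic fibres, was at 10.93, 11.04 and 10.96 against 9.61, 9.63 and 9.79 (-1.30, adjusted p = 0.00561 from limma). Mef2a (-0.93), Nfatc3 (-0.61) and Maf (-0.56) were higher in EDL, and Esrrg (0.03), Six5 (0.04) and Eya1 (0.04) did not pass.

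Positional genes, which mark where in the limb a cell arose, had low signals, with list means of 5.50 to 5.74 per array. Of 51 measured homeobox and T-box genes 5 passed higher in soleus (9.8%) and 3 higher in EDL (5.88%), shares near the 8% and 8.4% of all genes. Zic1 was at 7.99, 8.18 and 7.20 in EDL and 5.39, 5.82 and 5.77 in soleus (-2.13, adjusted p = 0.0238 from limma), a call lost on leaving out any array but EDL 3 (adjusted p from 0.0514 to 0.0881) and in the fit with the array number as a block (adjusted p = 0.0563). Barx2, a homeobox gene, differed by 1.09 (adjusted p = 0.00199 from limma). Of 19 genes of myogenic factors and satellite cells 4 were higher in soleus and 0 in EDL: Notch1 (0.68), Notch3 (0.67), the Notch target Hey1 (0.58) and the filament protein Nes (0.56). Notch3 (adjusted p = 0.0493 from limma) no longer passed on leaving out any array but soleus 1. Myod1, a myogenic factor, had the largest difference of that list, at 7.86, 7.71 and 7.62 in EDL and 6.64, 6.29 and 6.80 in soleus, and did not pass (-1.15, adjusted p = 0.175 from limma; 0.0457 with the block). In BF soleus, part of the pooled spread, Myod1 was at 8.95, 9.49 and 6.13. Myf5 (0.03), another myogenic factor, did not pass.

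Membrane genes differed by subunit. Of 26 ion channel and sodium pump genes 4 passed higher in soleus (15.4%) and 8 higher in EDL (30.8%), against 8% and 8.4% of all genes. The 8 became 5 without EDL 2, soleus 1 or soleus 2. The beta subunits of the sodium pump went in opposite directions: Atp1b2 was at 10.87, 10.88 and 11.47 in EDL and 8.48, 8.80 and 8.82 in soleus (-2.38, adjusted p = 0.000159 from limma), whereas Atp1b1 was at 12.53, 12.73 and 12.80 in soleus and 11.61, 11.76 and 11.12 in EDL (1.19, adjusted p = 0.00271 from limma). Kcnc4, a fast-closing potassium channel, was at 9.53, 9.55 and 10.65 against 6.61, 7.20 and 7.39 (-2.84, adjusted p = 0.000155 from limma). Clcn1, the chloride channel that steadies the resting membrane, was at 9.42, 9.40 and 9.61 in EDL and 8.16, 8.42 and 8.31 in soleus (-1.18, adjusted p = 0.00012 from limma). Kcnma1, the BK potassium channel, was at 8.96, 8.97 and 9.07 in soleus and 7.61, 8.0 and 7.11 in EDL (1.42, adjusted p = 4.38e-05 from limma). Fxyd6, a pump modulator (1.79), and Atp1b4, a muscle-specific member of the beta family (1.90), were higher in soleus.

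Of 19 genes listed for the neuromuscular junction and synapse receptors 4 were higher in soleus (21.1%) and 2 in EDL (10.5%). Over all genes these shares were 8% and 8.4%. Chrna1, the alpha subunit of the acetylcholine receptor, was at 9.15, 9.23 and 9.07 in soleus and 8.12, 8.02 and 7.86 in EDL (1.15, adjusted p = 2.47e-05 from limma). Chrne, the adult epsilon subunit, was higher in EDL (-0.71, adjusted p = 0.0345 from limma). Chrne no longer passed without EDL 2, EDL 3, soleus 1 or soleus 3 (adjusted p from 0.0699 to 0.151 from limma). Ache, which breaks down acetylcholine, was at 6.82, 7.19 and 7.23 in EDL and 5.73, 6.32 and 5.92 in soleus (-1.09, adjusted p = 0.00351 from limma). Npr3, the clearance receptor of natriuretic peptides, is also counted in that list. It was at 9.17, 9.05 and 8.88 in soleus and 7.40, 7.21 and 6.97 in EDL (1.84, adjusted p = 7.13e-06 from limma). The delta and gamma subunits, Chrnd (0.05) and Chrng (0.02), did not pass.

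Heat shock genes passed in 1 direction. Of 27 measured members 9 were higher in soleus (33.3%), 7 of them over 2-fold, and 0 in EDL, with a median of 0.29. Over all genes 8% passed higher in soleus and 8.4% higher in EDL. Hspb7, a small heat shock protein of muscle, was at 13.25, 13.32 and 13.01 in soleus and 11.61, 11.39 and 10.21 in EDL (2.12, adjusted p = 5.35e-05 from limma). Dnaja4, a co-chaperone, was at 11.40, 11.02 and 11.03 against 9.72, 9.63 and 8.90 (1.73, adjusted p = 0.00367 from limma). Hspb1 was at 13.07, 12.99 and 12.94 against 11.99, 11.69 and 11.11 (1.41, adjusted p = 0.000226 from limma). Hspa1a, the inducible 70-kDa chaperone, was at 9.67, 9.56 and 9.99 against 7.44, 7.53 and 5.92 (2.78, adjusted p = 0.0245 from limma) and did not pass when EDL 3 or any single soleus array was left out. These 4 genes were lowest in EDL 3. The mitochondrial chaperonins Hspd1 (-0.06) and Hspe1 (-0.01) did not pass.

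Lists of growth, antioxidant, structural and other genes were counted in the same way. Of 33 growth and atrophy genes 6 were higher in soleus (18.2%) and 2 in EDL (6.06%), against 8% and 8.4% of all genes. Gabarapl1, an autophagy protein, was at 10.28, 10.52 and 10.02 in soleus and 8.60, 9.09 and 8.75 in EDL (1.46, adjusted p = 0.000245 from limma). Fst, follistatin, the inhibitor of myostatin, was at 7.64, 6.93 and 7.37 against 5.76, 5.86 and 6.07 (1.42, adjusted p = 0.00269 from limma). Igfbp5, a binding protein of insulin-like growth factors, was higher in EDL (-1.35, adjusted p = 0.000332 from limma), as was Gadd45a, a stress gene (-1.30). Fbxo32, the ubiquitin ligase atrogin-1, did not pass (0.00). Of 26 antioxidant genes 4 were higher in soleus and 7 in EDL, led by the secreted peroxidase Gpx3 (-1.08) and by Sod3, the extracellular superoxide dismutase (0.95), and the 4 became 1 without soleus 3 and 2 without EDL 3. Of 28 Z-disc and costamere genes 5 passed each way, among them the actin-binding repeat protein Xirp1 at 11.05, 10.60 and 10.60 in soleus and 8.44, 8.55 and 8.37 in EDL (2.30, adjusted p = 0.00523 from limma). Of 31 proteasome subunits 7 were higher in EDL and 0 in soleus, the largest difference being -0.95 (Psmd8). The 7 became 3 without EDL 3 and 4 without soleus 1 or soleus 2. In BG 0 subunits passed higher in EDL and 2 higher in soleus, with a list median of 0.08 against -0.24 in FC. Of 29 ribosomal proteins 0 passed either way by limma. Of 17 clock genes only the receptor Rora passed (-0.91, adjusted p = 0.00486 from limma). Of 39 collagen and matrix genes 3 were higher in soleus (7.69%) and 1 in EDL (2.56%), shares no larger than the 8% and 8.4% of all genes. The highest in soleus was Col8a1 (1.38). The gene higher in EDL was tenascin Tnc (-1.46), which did not pass without EDL 3 (-1.24, adjusted p = 0.0505 from limma).

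**Figure D4:**
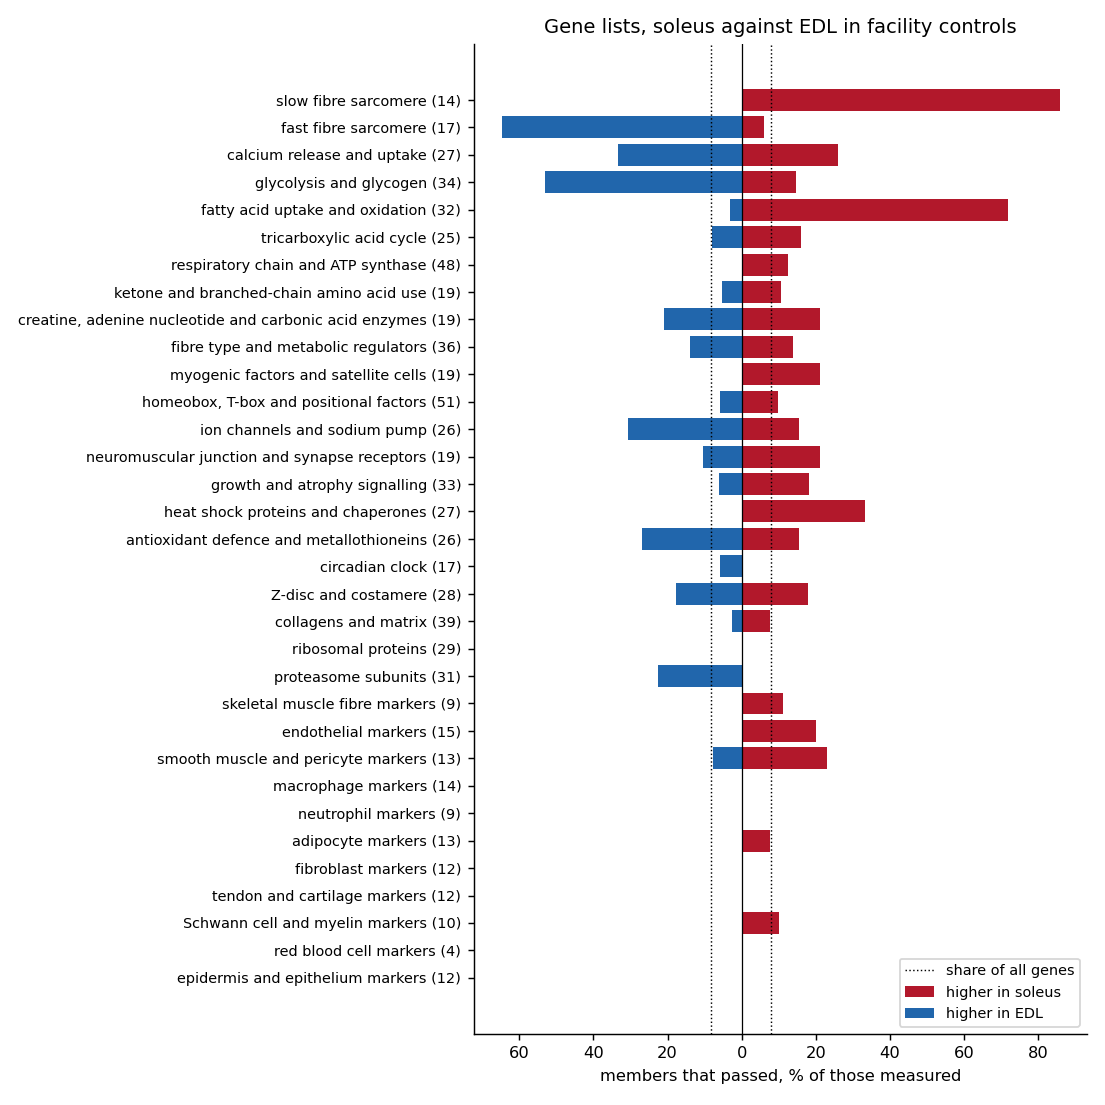
Share of the measured members of each of 33 lists that passed (horizontal axis, %), to the right for higher in soleus and to the left for higher in EDL, with the number measured in parentheses; dotted lines give the share of all 12393 genes, 8% and 8.4%. Slow-fibre and fatty acid genes reach farthest to the right, fast-fibre and glycolysis genes farthest to the left.

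Markers of other cell types were compared by list. The shares higher in soleus were 20% for endothelial, 23.1% for smooth muscle and pericyte, 10% for Schwann cell and 7.69% for adipocyte markers. Over all genes 8% were higher in soleus and 8.4% in EDL. In the same order, the medians of these lists were 0.36, 0.46, 0.47 and 0.48 in FC. In BG they were 0.06, 0.04, 0.07 and 0.58, and 1, 1, 0 and 2 members passed higher in soleus there. Of 15 endothelial markers 3 were higher in soleus (Kdr 1.06, Tie1 0.80 and Tek 0.43) and 0 in EDL, and the count was 1 to 4 with 1 array left out. Tek no longer passed whichever array was left out, nor did Tie1 without EDL 1 (0.67, adjusted p = 0.055 from limma). The summed linear signal of that list was 6367 to 7397 in soleus and 5248 to 5861 in EDL. Of 13 smooth muscle and pericyte markers 3 were higher in soleus and 1 in EDL, with sums of 19782 to 20633 and 16596 to 16991, and 1 higher in soleus without EDL 1, EDL 3 or soleus 2. Of 10 Schwann cell markers Pmp22 alone passed (0.82; lost without EDL 1, EDL 3, soleus 1 or soleus 3), with sums of 3807 to 5391 in soleus and 1857 to 3438 in EDL. Of 13 adipocyte markers Lipe alone passed (0.83; lost without EDL 1, EDL 2, soleus 1 or soleus 2), with sums of 8795 to 10514 and 6680 to 9992. None of 14 macrophage, 9 neutrophil, 12 fibroblast, 12 tendon, 4 red blood cell or 12 epidermis markers passed. The part of these cells in the differences above was not tested.

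The same contrast was read in the BG and BF mice, whose arrays are separate from those of FC. In BG 17% of all genes passed and 3.82% were called. Of the 438 genes called in FC, 434 had the same direction in BG and 372 passed there in that direction (84.9%), with 0 passing in the opposite one. Myh7 differed by 4.92 in BG, Tnni1 by 5.05, Casq2 by 2.97, Myh4 by -4.56, Tspan8 by -5.00 and Smox by -3.64, each passed. Sln was at 3.49 in BG against 5.69 in FC, and that change did not pass (adjusted p = 0.109 from limma). A test of FC minus BG passed for 0 of all genes (0%) by limma and for 2 by ordinary contrasts without moderation, while 1976 genes (15.9%) had an unadjusted p under 0.05. With weights for array quality 111 genes were called, so a null count there depends on the fit.

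In BF 12.4% of all genes passed and 2.45% were called. Of the 438 genes 394 had the same direction and 169 passed in it (38.6%), with 3 passing in the opposite one, and the difference between BG and BF in these shares was not tested. The FC minus BF test passed for 253 genes (2.04%), of which 169 were called (1.36%), 85 with a positive and 84 with a negative value. The 12 slow sarcomere genes that passed in FC were also higher in soleus in BF, where 9 of them passed (5.79% of all genes passed higher in soleus there), with Myh7 at 5.03, Tnni1 at 4.40 and Tnnt1 at 4.02, and 0 of 14 passed the FC minus BF test. In BF soleus Actn3 was at 13.68, 12.75 and 13.55, far above its FC soleus values. Its difference went from -4.14 in FC to -0.46 in BF (adjusted p of the change 0.013 from limma), and Pvalb from -2.51 to -0.31. Myh4 went from -4.45 to -0.38, which did not pass as a change (adjusted p = 0.0744 from limma). Of the fatty acid list 7 of 32 members passed that test, and its median was 0.62 in FC, 0.54 in BG and -0.05 in BF. These BF values rest on 3 arrays for each muscle: leaving out soleus 2 or 3 of BF moved the count of genes called between the muscles in BF from 304 to 128 or 526.

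**Figure D5:**
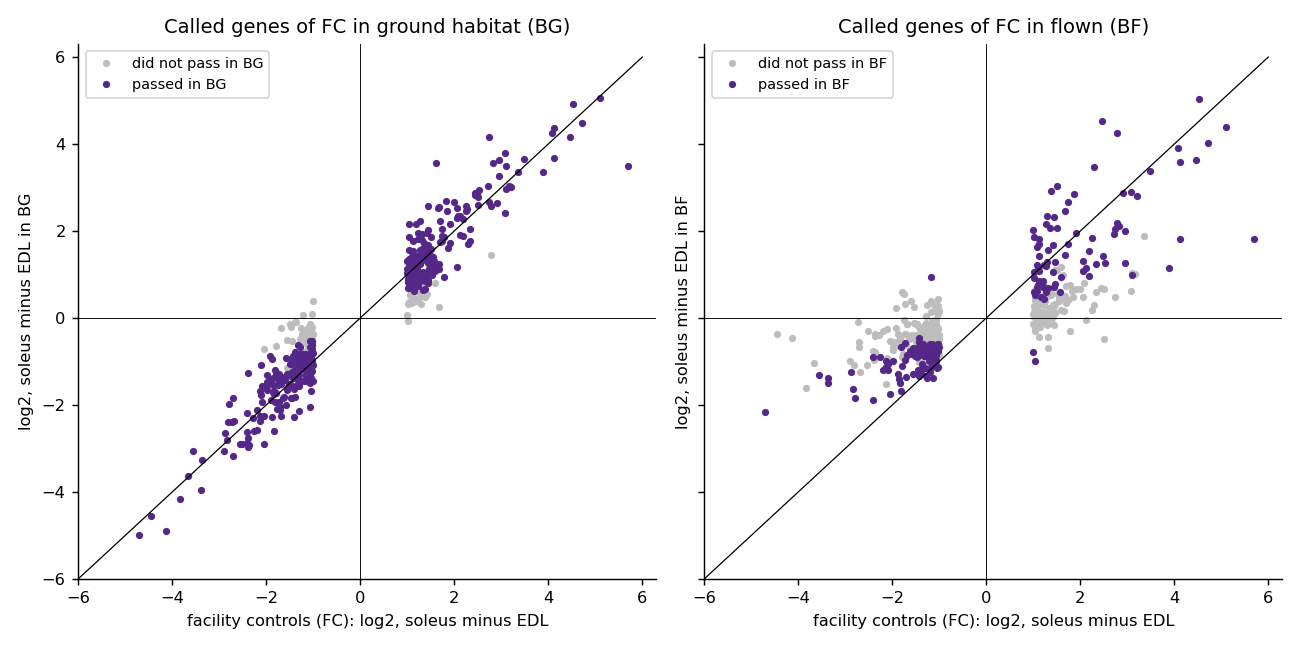
The 438 genes called in FC, with their log2 difference, soleus minus EDL, in FC (horizontal axes) beside that in BG (left) and BF (right); purple points passed in that condition and the diagonal marks equal differences. In BG most points follow the diagonal and 372 passed, while in BF many lie near 0 and 169 passed.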

How the data were processed

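RNA of 3 soleus and 3 EDL samples of each of 3 conditions was hybridised to Affymetrix mouse expression arrays, 1 sample to an array. The authors normalized all 18 arrays together by RMA in Partek Genomics Suite and deposited log2 signals, used here as given. Scanner files were not used here, so no detection calls entered and the number of arrays limits the precision. Because RMA shares information across arrays, and because bright probes saturate, differences of the brightest genes may be compressed.

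Of 22690 probe sets, 64 controls were left out and 22626 tested. The platform table gave 1 gene to 20380 probe sets (20351 matched to RefSeq), several to 691 and none to 1555. limma 3.58.1 in R 4.3.3 fitted a mean for each of 6 groups, with contrasts of soleus and EDL within each condition and of FC with BG and BF, and Benjamini-Hochberg adjustment over all probe sets. A single-gene exact permutation test of 3 against 3 arrays cannot go below 0.1. On simulated data for the FC contrast, 89.7% of 68 probe sets changed by 1 on the log2 scale passed. Of all simulated probe sets that passed, 6.4% had not been changed. The simulated noise was normal with no outlying array, so these shares need not hold for the real arrays.

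In FC the deviations of same-numbered soleus and EDL arrays from their group means correlated at 0.373, 0.159 and 0.199. The values were -0.049, 0.201 and 0.062 in BG and -0.021, 0.119 and 0.139 in BF. The labels do not give the pairing, so the main fit was unpaired. The array number entered only in an alternative fit, as a block. Named genes were all measured slow and fast sarcomere genes, the 12 largest called differences each way with arrays that did not overlap, up to 5 passed members with the largest and 3 with the smallest differences in each other list, the 4 extremes each way among genes called in FC minus BG and FC minus BF, and fast and slow counterparts; further list members were named after their values were seen. The members and lists were chosen with earlier results of these data known. Promoter letters came from RefSeq (GRCm38.p6).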

Additional observations from a re-analysis of the deposited data

Results flagged for a closer look

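The difference between the muscles was itself tested between FC and BF mice, and 35 of 255 named genes passed that test by limma. Of all 12393 genes 253 passed it (2.04%). Some genes were named as extremes of this same test, and others for large FC differences. The share among named genes therefore cannot be set against that of all genes. Values below are the FC difference (soleus minus EDL) minus the BF difference, on the log2 scale, so a positive value means that soleus stood higher over EDL in FC than in BF. No named gene passed the same test against BG.

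Calcium genes were Sln 3.88, Pln 2.17, Casq2 2.1, Homer2 1.26 and Rcan2 1.28. Sln went from 5.69 in FC to 1.81 in BF and Pln from 2.12 to -0.05. Fatty acid and mitochondrial genes were Plin5 1.74, Fabp3 1.28, Acaa2 1.27, Cd36 1.12, Idh2 1.98 and Ndufv1 0.62, with the receptor Ppara 1.60. Acaa2 went from 1.21 to -0.07 and Idh2 from 2.28 to 0.30. Membrane and synapse genes were Fxyd6 2.1, Kcnma1 1.13, Chrna1 1.36 and Npr3 1.38. Other genes higher in soleus in FC were Lgi1 2.32, Cyfip2 2.74, Ndrg4 2.45, Myh3 3.00 and Eln 1.09, of which Myh3, the embryonic myosin, went from 2.51 to -0.48.

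Among genes higher in EDL in FC, the sarcomere and calcium-buffer genes were Actn3 -3.68, Pvalb -2.20 and Myoz1 -1.09. Those of metabolism were Gpd1 -2.16, Gpd2 -1.16, Gpt2 -2.01, Phkg1 -1.62 and Odc1 -1.36, and the others were Tlcd4 -2.25, Mef2a -0.66 and Psmd8 -1.23. The genes Cd68 -3.40, Gm13889 -3.30 and Hbegf -3.58 did not pass in FC (0.41, 0.34 and -0.85) and were higher in soleus in BF by 3.81, 3.64 and 2.72. Cd68 is 1 of 14 macrophage markers, and it alone of them passed the test: the list median was 0.10 in BF and -0.10 in FC, with C1qa at -0.11 and Ctss at -0.51 in BF. The BF soleus arrays had Myh4 at 13.96, 13.41 and 13.95, against 8.02, 10.96 and 10.32 in FC.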

How the results depend on the processing

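With 3 arrays a group, the count of genes called in FC (438) ran from 389 to 462 when any 1 array was left out, that of genes higher in soleus (201) from 177 to 205 and that of genes higher in EDL (237) from 212 to 269. The BG count (474) ran from 446 to 532, and the BF count (304) from 128 (without soleus 2) to 526 (without soleus 3). For FC minus BG the count of 0 became 111 with array weights, 5 with arrays centred on the median and 1 with cyclic loess, and ran from 0 to 78 (without EDL 1 of BG) with 1 array left out; it was 17 without soleus 3, 2 without EDL 3 and 1 without soleus 2 of FC. For FC minus BF the count of 169 became 404 with array weights and 69 with ordinary contrasts, and ran from 99 (without EDL 1 of BF) to 339 (without soleus 3 of BF). The cause was not tested. With the replicate number as a block (pairing), 443 genes were called in FC, 436 of them among the 438, and 2127 passed; for FC minus BF 219 were called, and for FC minus BG 0. The block moved none of these counts by over 1.5 times; single genes of the text whose pass it changed are given beside them. The median of the epidermis list turned from -0.18 to 0.32 with a mean signal of at least 6 required, a filter that left no neutrophil marker to give a median. Of 3786 values of named genes under alternatives, 3363 kept direction and side of the threshold, 169 no longer passed, 18 newly passed, 236 that had not passed changed sign and 0 passed values did. Of 152 passed named genes, 118 passed under every alternative run. Between 15 and 26 no longer passed when a given FC array was left out, most without EDL 3. The median of all genes stayed between -0.008 and 0.044 over the settings.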
